A study of Homo sapiens
Mus musculus and Homo sapiens with 12 samples.

Results

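The retinoid genes described here are 5 human genes that act in the synthesis, binding and response of retinoic acid, named ALDH1A1, ALDH1A3, CRABP2, RARRES1 and PLAAT4, out of 10588 human genes with a listed coding transcript. They were chosen by name, and the level of each is the sum of its human RefSeq coding transcripts in a library. The libraries are polyA RNA of a cell fusion experiment. Heterokaryons are transient cells, each made by fusing a D3 mouse embryonic stem (ES) cell with an MRC5 human fibroblast, in which the nuclei of the 2 species stay separate and which are not propagated as a line; they were collected on days 1, 2 and 3, with 2 libraries a day. As controls there were 2 libraries of the mouse and human cells grown together but not fused (co-culture), 3 libraries of unfused human fibroblasts and 1 library of homokaryons, in which human fibroblasts were fused with each other. No time label is given for the controls. The labels name MRC5 for the heterokaryons and co-cultures, and the fibroblasts of the other controls only as human fibroblasts. The sources describe a cell sort only for the heterokaryons.

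Retinoic acid is made from vitamin A in steps: retinol is oxidised to retinal, and retinaldehyde dehydrogenases, which include ALDH1A1 and ALDH1A3, oxidise retinal to retinoic acid. CRABP2 binds retinoic acid in the cytoplasm and hands it to the nuclear retinoic acid receptors, which pair with retinoid X receptors on DNA. RARRES1 and PLAAT4 (once called RARRES3) were both found as genes that rise in cells given retinoids, and retinoic acid is widely known for driving embryonic stem cells to differentiate.

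Some tables limit what can be read. The table of unfused fibroblast replicate 3 lists no human transcript and was not used, and each of the other 11 tables runs in accession order up to a point of its own. Past that point 185 to 529 human transcripts are still listed in a table. These values were not used, and a gene there is called not covered, never 0. ALDH1A1 and ALDH1A3 were covered in all 11 libraries. CRABP2 was covered in all but unfused fibroblast replicate 1. PLAAT4 was covered in neither unfused fibroblast library and in neither day 2 library, and for RARRES1 only 1 of its 2 transcripts was covered anywhere. Values are taken to be RPKM (reads scaled to transcript length and library size), a unit inferred from the values. Read totals are not given in the sources used here, so the depth behind a value is unknown. The fibroblast markers COL1A1 and VIM were high in every library that covers them, with COL1A1 between 1576 and 5487 RPKM. Of 8 pluripotent stem cell markers, POU5F1 was not covered in any library and the others are listed in none. Genes listed in no table were given no level here, and whether these markers would stand at 0 was not worked out.

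Because the members have relatives of similar sequence, the stretch of coding sequence around the longest run of identical bases is shown for the pairs whose levels are set against each other below. Sequences are those of the GENCODE 29 transcripts on GRCh38, 75 bases each, 5′ to 3′ on the coding strand, with capitals marking the bases that differ within the pair. ALDH1A3 (chr15:100905645-100907152, plus strand) and ALDH1A1 (chr9:72909728-72912000, minus strand) are shown at the junction of exons 10 and 11, where 15 of the 75 bases differ. CRABP2 (chr1:156701048-156705446, minus strand) and CRABP1 (chr15:78340429-78341047, plus strand) are shown from the start codon across exons 1 and 2, where 21 bases differ.
ALDH1A3: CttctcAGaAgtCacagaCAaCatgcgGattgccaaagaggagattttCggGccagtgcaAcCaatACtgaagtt
ALDH1A1: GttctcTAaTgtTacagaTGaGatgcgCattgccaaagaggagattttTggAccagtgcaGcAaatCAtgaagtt
CRABP2: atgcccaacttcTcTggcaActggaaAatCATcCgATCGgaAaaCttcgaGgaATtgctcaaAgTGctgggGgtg
CRABP1: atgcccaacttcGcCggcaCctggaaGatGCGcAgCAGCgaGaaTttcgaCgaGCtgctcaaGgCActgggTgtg
Over the whole aligned coding sequence, ALDH1A3 and ALDH1A1 were 67.0% identical with a longest shared run of 20 bases, and CRABP2 and CRABP1 were 73.0% identical with a longest shared run of 12 bases. PLAAT4 and its neighbour PLAAT3 were 62.2% identical with a longest shared run of 23 bases, and PLAAT3 was covered in no library. Mouse sequences were not compared, and the part of mouse RNA in the human values of heterokaryons and co-cultures was not tested.

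ALDH1A3, on chromosome 15 (GRCh38 100879831 to 100916626), was low in every control and higher in every heterokaryon library. On day 1 its level was 14.6 RPKM in replicate 1 and 24.5 in replicate 2. On day 2 it was 21.9 and 26.3 RPKM, and on day 3 it was 11.6 and 8.35 RPKM. The 2 co-cultures stood at 1.22 and 1.65 RPKM, the homokaryons at 1.56 RPKM, and unfused fibroblast replicates 1 and 2 at 0.506 and 0.358 RPKM. The lowest heterokaryon library was thus above the highest control library, and how many other genes separated in this way was not counted. Group means were 19.5 ± 6.96, 24.1 ± 3.09 and 9.99 ± 2.32 RPKM on days 1, 2 and 3 and 1.44 ± 0.300 RPKM in co-culture (SD, n = 2 each).

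Against co-culture, mean ALDH1A3 was 13.6 times as high on day 1, 16.8 times on day 2 and 6.96 times on day 3. Tests were made with limma on log2 of (RPKM + 1), a scale that understates the change of low genes, with p-values adjusted over all genes tested in a comparison and a call at an adjusted p under 0.05. The labels do not say that replicates were separate cultures, so a p-value reflects only how far these libraries spread. The log2 fold change of ALDH1A3 was 3.04 on day 1 (SE 0.47, adjusted p = 0.00793, limma), 3.37 on day 2 (SE 0.46, adjusted p = 0.00488) and 2.16 on day 3 (SE 0.47, adjusted p = 0.0426). With only 2 libraries a group, single libraries carried weight: the day 1 call was lost without co-culture replicate 1 (adjusted p = 0.0730, limma) or replicate 2 (0.0575), the day 2 call without day 2 replicate 1 (0.0523) or replicate 2 (0.0559), and the day 3 call whichever of the 4 libraries was left out (adjusted p from 0.0735 to 0.238). The direction was upward in all 13 alternative settings of each of these 3 comparisons. The size depends on the pseudocount: with 5 and with 0.1 in place of 1 the log2 fold change was 1.90 and 3.64 on day 1, 2.17 and 3.99 on day 2 and 1.21 and 2.71 on day 3, and the day 3 value with 5 did not pass (adjusted p = 0.0677, limma).

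ALDH1A3 was also the one member that could be tested against both unfused fibroblast libraries, where its log2 fold change was 3.80 on day 1 (adjusted p = 0.000829, limma), 4.13 on day 2 (adjusted p = 0.000596) and 2.93 on day 3 (adjusted p = 0.00444), each with SE 0.41. With a pseudocount of 5 and of 0.1 these were 2.15 and 5.17, 2.42 and 5.52, and 1.46 and 4.24. Leaving out unfused fibroblast replicate 1 or 2 ended the day 3 call (adjusted p = 0.0632 and 0.0686, limma) and not those of days 1 and 2. Co-culture stood 3.32 times above unfused fibroblasts, a log2 difference of 0.76 that did not pass (SE 0.41, adjusted p = 0.574, limma) and that was 0.24 with a pseudocount of 5 and 1.53 with 0.1. The homokaryon level was 3.61 times the unfused fibroblast mean and 1.09 times the co-culture mean, with no test since it is 1 library.

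The order of the ALDH1A3 levels was day 2, day 1, day 3, homokaryon, co-culture and unfused fibroblast. Neighbours in this order that could be tested were not told apart: day 2 against day 1 gave a log2 fold change of 0.33 (adjusted p = 0.732, limma), with the sign turning to -0.03 without day 1 replicate 1. Day 3 against day 2 gave -1.20 (adjusted p = 0.551, limma) and day 3 against day 1 gave -0.88 (adjusted p = 0.363, limma), although both day 3 libraries lie under every library of days 1 and 2. The days share the co-culture and fibroblast libraries as controls.

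ALDH1A1, the other retinaldehyde dehydrogenase of the set (chromosome 9, GRCh38 72900671 to 72953053), was not listed in 9 of the 11 libraries. It was listed at 0.236 RPKM in day 2 replicate 1 and at 1.49 RPKM in day 3 replicate 1, and the second library of each of those days was at 0. Day 1, co-culture, homokaryon and unfused fibroblast libraries were all at 0, so both of the listed values are in heterokaryons and neither is shared by its replicate. The gene reached 1 RPKM in only 1 library and did not pass the filter for the test. In the day 3 library with the highest ALDH1A1, ALDH1A3 stood at 11.6 RPKM.

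**Figure D1:**
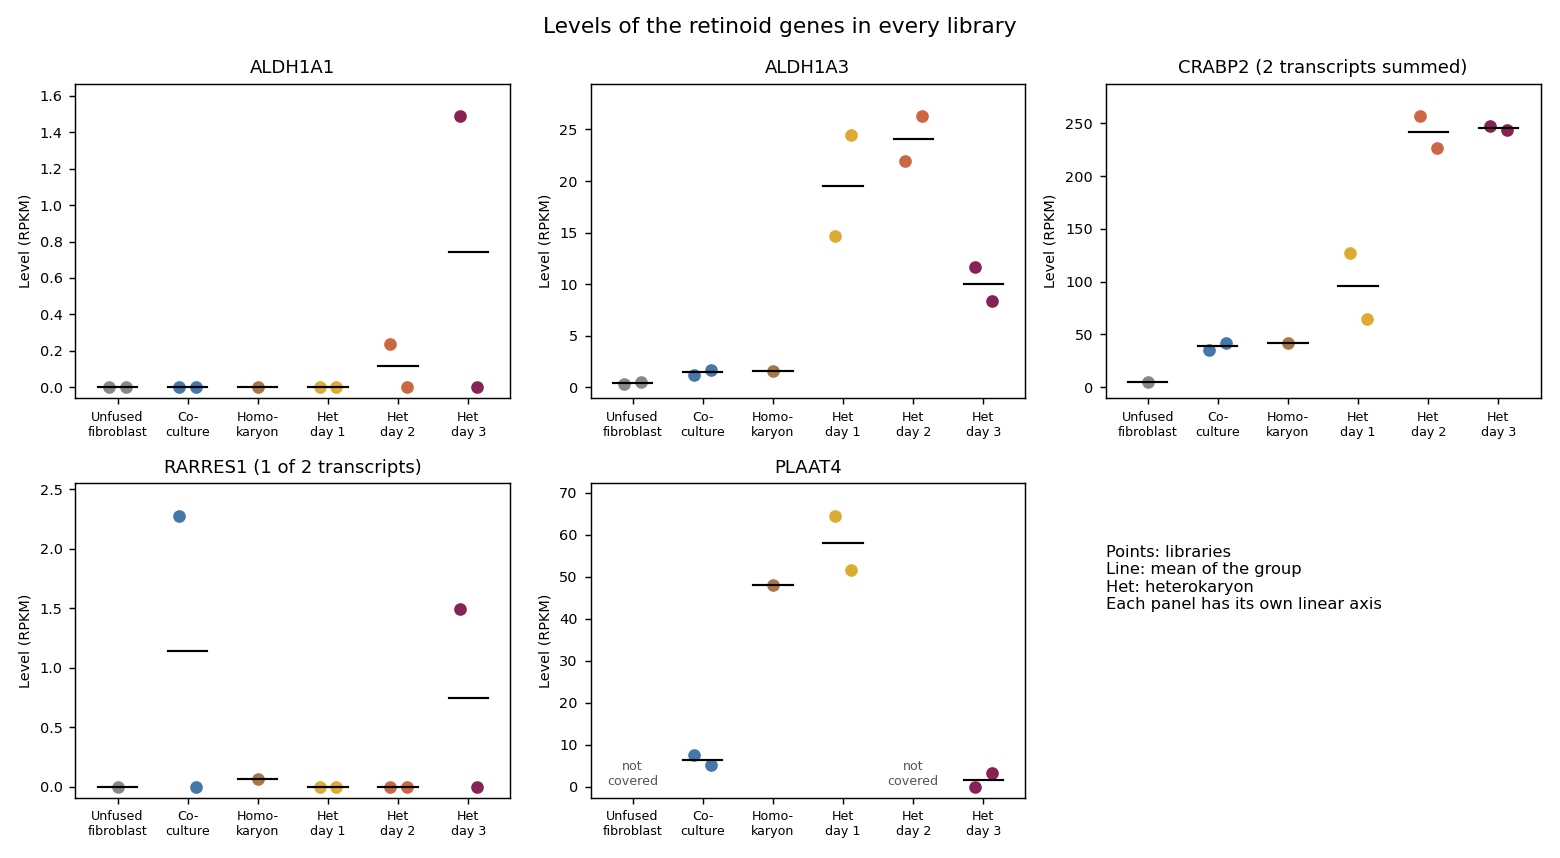
Level in RPKM (linear axis, its own range in each panel) of each of the 5 retinoid genes in each library, with points for libraries and a line at the group mean. ALDH1A3 is between 8.35 and 26.3 RPKM in the heterokaryons and at most 1.65 in the controls, CRABP2 is above 226 RPKM on days 2 and 3, and PLAAT4 is high on day 1 and in homokaryons; groups marked not covered have no value, and the CRABP2 and RARRES1 fibroblast points are 1 library.

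CRABP2, the carrier of retinoic acid (chromosome 1, GRCh38 156699606 to 156705784), had the highest level among the members covered in every heterokaryon library and in co-culture. Its level was 127 RPKM in day 1 replicate 1 and 65.0 in replicate 2. On day 2 it was 257 and 226 RPKM, and on day 3 it was 247 and 243 RPKM. Co-cultures were at 35.6 and 41.5 RPKM, homokaryons at 41.6 RPKM, and unfused fibroblast replicate 2, the 1 fibroblast library that covers the gene, at 5.15 RPKM. The heterokaryon libraries were all above the co-culture, homokaryon and fibroblast libraries, and the pairs of days 2 and 3 were close together. How many other genes separated in this way was not counted here either. The spread of the day 1 pair comes with summing: both CRABP2 transcripts are listed in replicate 1, at 63.2 and 64.0 RPKM, and 1 of them in replicate 2, at 65.0 RPKM.

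Against co-culture, mean CRABP2 was 2.49 times as high on day 1 (96.1 ± 44.0 against 38.6 ± 4.17 RPKM, SD, n = 2 each), 6.26 times on day 2 (242 ± 21.5) and 6.36 times on day 3 (245 ± 2.52). The log2 fold change was 1.22 on day 1 (SE 0.33) and missed the threshold (adjusted p = 0.0530, limma). It was 2.62 on day 2 (SE 0.33, adjusted p = 0.00505, limma) and 2.64 on day 3 (SE 0.34, adjusted p = 0.00876, limma), where CRABP2 rose. The day 1 difference passed without day 1 replicate 2 (1.70, adjusted p = 0.0183, limma), was 0.74 without day 1 replicate 1 (adjusted p = 0.129), and was 0.72 with the transcript with the highest mean in place of the sum (adjusted p = 0.176). Also, the day 2 call was lost without day 2 replicate 1 (0.0532) or replicate 2 (0.0554) and the day 3 call without co-culture replicate 1 (0.110) or replicate 2 (0.0785). The direction was upward in all 13 alternative settings of each.

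Between days, CRABP2 on day 2 stood 2.51 times above day 1, a log2 fold change of 1.40 that did not pass (SE 0.33, adjusted p = 0.0946, limma). Day 3 against day 1 gave 1.42 (adjusted p = 0.0830, limma), which passed only when libraries were scaled by their upper quartile (1.94, adjusted p = 0.0409). Day 3 against day 2 gave 0.02 (adjusted p = 0.996, limma). The order was therefore day 3, day 2, day 1, homokaryon, co-culture and unfused fibroblast, and no test separated neighbouring days.

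The CRABP2 level in co-culture was 7.49 times that in unfused fibroblast replicate 2, and the homokaryon level was 8.07 times it and 1.08 times the co-culture mean. CRABP2 could be tested against unfused fibroblasts only when replicate 1, which does not cover it, was left out, so that the lone library was assumed to vary as the other groups do. That fit gave log2 fold changes of 2.68 for co-culture (adjusted p = 0.0411, limma), 3.90 for day 1 (adjusted p = 0.00326), 5.30 for day 2 (adjusted p = 0.000494) and 5.32 for day 3 (adjusted p = 0.000672). CRABP2 thus stood higher than in that 1 fibroblast library in unfused co-culture and in homokaryons as well as in heterokaryons.

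Both CRABP2 transcripts listed in the tables encode the same 414 coding bases. In day 1 replicate 1 and in unfused fibroblast replicate 2, where both were listed, the second transcript stood at 1.01 times the first, and elsewhere 1 of the pair held the whole level. The sum was used throughout, since over 47 genes split in this way in 1 day 1 replicate only, the sums of the replicates stood at a median ratio of 1.05, whereas the larger transcripts alone stood at a ratio of 1.997. CRABP2 itself was the other way round on day 1, where its sums (127 and 65.0 RPKM) differed more than its larger transcripts (64.0 and 65.0 RPKM). By the first transcript alone, a measure added after the values were seen, which stood at 2.56 RPKM in unfused fibroblast replicate 2, co-culture was 15.1 times and homokaryons 16.2 times that library, and days 1, 2 and 3 were 25.0, 94.4 and 95.8 times it. Day 2 against day 1 was then 1.90 (adjusted p = 0.0580, limma) and day 3 against day 1 was 1.92 (adjusted p = 0.0528).

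**Figure D2:**
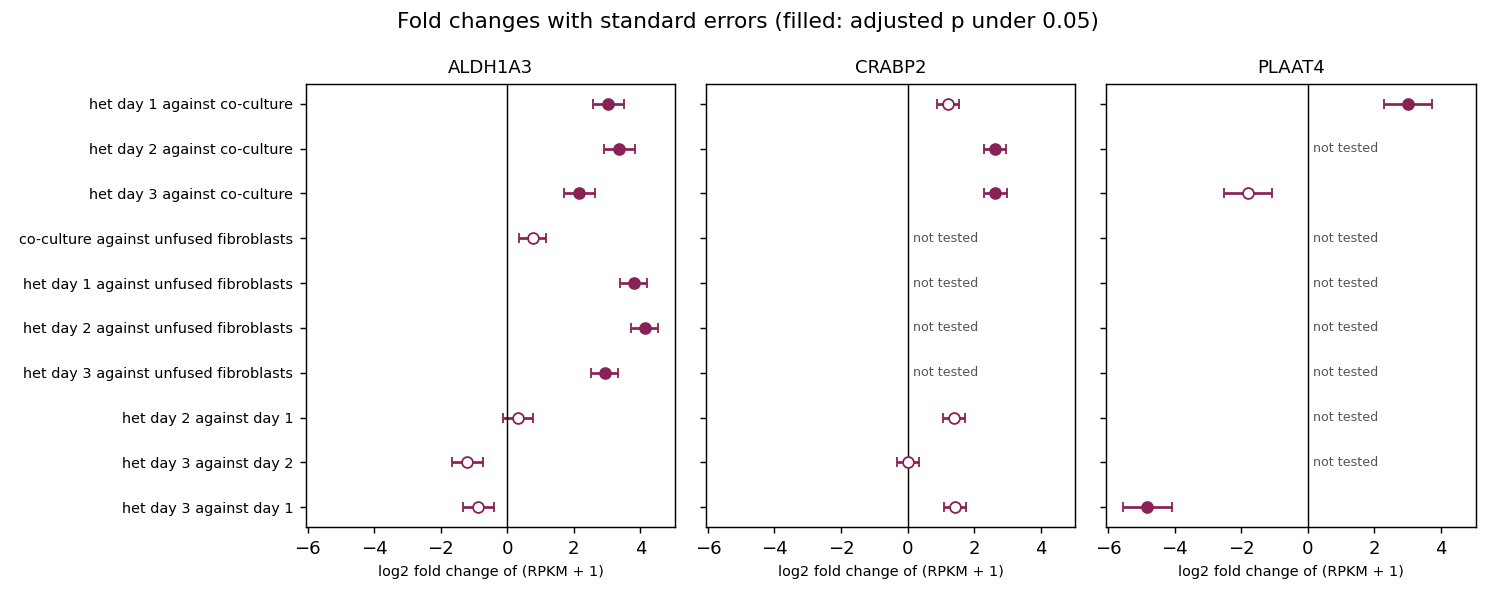
The log2 fold change of (RPKM + 1) for ALDH1A3, CRABP2 and PLAAT4 in each comparison, with horizontal bars for the standard error and filled points at an adjusted p under 0.05. ALDH1A3 is right of 0 against both controls on all 3 days, CRABP2 reaches 2.62 and 2.64 on days 2 and 3, and PLAAT4 lies at 3.01 on day 1 and at -1.81 on day 3 against co-culture.

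PLAAT4, a retinoid-induced phospholipase and acyltransferase that restrains growth and is also induced by interferon (chromosome 11, GRCh38 63536808 to 63546458), was high on day 1 and near the bottom on day 3. On day 1 its level was 64.5 RPKM in replicate 1 and 51.6 in replicate 2. On day 3 replicate 1 was at 0 and replicate 2 at 3.33 RPKM. Co-cultures stood at 7.67 and 5.10 RPKM and the homokaryons at 48.1 RPKM. Both day 1 libraries lay above the homokaryons, which lay above co-culture, and both day 3 libraries lay under both co-cultures. The homokaryon level was 7.53 times the co-culture mean.

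Mean PLAAT4 on day 1 (58.1 ± 9.09 RPKM, SD, n = 2) was 9.09 times the co-culture mean (6.39 ± 1.81, n = 2), and PLAAT4 rose by a log2 fold change of 3.01 (SE 0.73, adjusted p = 0.0459, limma). On day 3 the mean was 1.66 ± 2.35 RPKM, a log2 difference from co-culture of -1.81 that did not pass (SE 0.73, adjusted p = 0.250, limma). That value was -0.75 without day 3 replicate 1 and -2.86 without replicate 2, and -0.81 and -3.44 with a pseudocount of 5 and of 0.1. From day 1 to day 3 PLAAT4 fell by 4.82 on the log2 scale (SE 0.73, adjusted p = 0.0464, limma). The rise on day 1 held in 3 of 13 alternative settings and was lost whichever library was left out (adjusted p from 0.0923 to 0.229, limma). The fall to day 3 held in 5 of 13 and was lost without day 1 replicate 1 (adjusted p = 0.104, limma) or replicate 2 (0.0815).

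RARRES1, a retinoid-induced membrane protein gene (chromosome 3, GRCh38 158696892 to 158732457), can be read only in part. Its transcripts share their first 672 coding bases and then part into coding sequences of 684 and 882 bases, and the accession of the longer one lies past the covered range of every table. The shorter transcript was listed at 2.28 RPKM in co-culture replicate 1, at 1.496 RPKM in day 3 replicate 1 and at 0.0645 RPKM in the homokaryons. It was at 0 in co-culture replicate 2, day 3 replicate 2, all libraries of days 1 and 2 and unfused fibroblast replicate 2. As with ALDH1A1, no listed value was shared by a replicate, but the homokaryons are 1 library and have none to compare. The longer transcript is listed past the covered range at 1.29 RPKM in co-culture replicate 1, 0.185 in day 2 replicate 1 and 0.0844 in unfused fibroblast replicate 1, and these values are not in the levels above. When genes covered in part were tested as well, its log2 difference from co-culture was -0.86 on day 1 (adjusted p = 0.4996, limma), -0.86 on day 2 (adjusted p = 0.522) and -0.20 on day 3 (adjusted p = 0.948).

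Counted over the members, 2 of the 3 that could be tested on day 1 against co-culture were higher (ALDH1A3 and PLAAT4), where 11.0% of all 3582 genes tested were called. On day 2 both members tested were higher (ALDH1A3 and CRABP2), where 10.5% of 2445 genes were called, and on day 3 the same 2 of 3 were higher, where 3.48% of 3014 were called. Against unfused fibroblasts ALDH1A3 alone entered the test and was called on each day, with 15.7%, 12.6% and 6.94% of 966 genes called on days 1, 2 and 3. Co-culture against unfused fibroblasts called 0 of 1 member and 0.207% of genes. Between days the count was 0 of 2 for day 2 against day 1 (0.327% of genes called), 0 of 2 for day 3 against day 2 (0% of genes called by limma, 199 at an unadjusted p under 0.05) and 1 of 3 for day 3 against day 1 (1.26% of genes called). The members were chosen with results of these data known, so their share is a description.

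The members were not alone in the retinoid pathway, and its other genes were read from fixed lists. Of 30 other enzymes of retinol and retinal, 4 could be tested on day 1 against co-culture and 1 was higher, where 11.0% of all genes tested were called. This was ADH5, an alcohol dehydrogenase that also acts on formaldehyde adducts, at 68.0 and 91.2 RPKM on day 1 against 28.8 and 31.3 in co-culture (log2 fold change 1.36, SE 0.28, adjusted p = 0.0201, limma). ADH5 was higher on day 2 too (1.47, adjusted p = 0.0168, limma) and was the 1 enzyme called among 3 tested, and on day 3 none of 3 was called. DHRS3, which reduces retinal back to retinol and is itself a retinoic acid target, stood at 3.04 and 2.28 RPKM on day 1 against 8.90 and 10.9 RPKM in co-culture and was not called. The median log2 fold change of the enzymes on day 1 was 0.46, against 0 over all genes tested.

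Other retinoid carriers were read beside CRABP2. CRABP1, the relative of CRABP2, was at 0 in every library that covers it other than day 3 replicate 2, where it was 1.98 RPKM against 243 RPKM for CRABP2. FABP5, a fatty acid carrier that can also carry retinoic acid, was at 9.31 to 24.9 RPKM in the heterokaryons and at 16.1 and 21.4 RPKM in co-culture, and was called on none of the 3 days against co-culture.

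The receptors RARA, RARG and RXRA were listed in every library that covers them. RXRB was not covered in any library, RARB is listed in none, and RXRG was at 0 in the 1 library that covers it. None of the 6 receptor or coregulator genes tested on day 1, 5 on day 2 or 6 on day 3 was called. RARA, a retinoic acid receptor, ranged from 4.62 to 21.5 RPKM over the 11 libraries. RARG, another receptor, ranged from 17.6 to 36.3 RPKM and RXRA, a retinoid X receptor, from 6.08 to 20.4 RPKM. The coactivator EP300 was at 6.94 and 11.3 RPKM on day 1 and at 20.5 and 16.0 RPKM in co-culture. The median log2 fold change of these genes against co-culture was -0.48 on day 1, -0.21 on day 2 and 0.10 on day 3, beside 0, 0.30 and 0.07 over all genes tested.

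Of 36 listed retinoic acid response genes, 13 were tested on day 1 and 1 was called, in the lower direction, beside 11.0% of all genes tested. It was SOX9, a transcription factor of cartilage and gonad, at 1.46 and 6.88 RPKM against 20.4 and 17.0 RPKM in co-culture (log2 fold change -2.16, SE 0.57, adjusted p = 0.0444, limma). None of 11 on day 2 or 12 on day 3 was called. HOXB2, a homeobox gene, was at 44.4 and 25.9 RPKM on day 1 and at 41.0 and 41.3 RPKM in co-culture, and HOXB5 at 3.25 and 38.4 against 28.4 and 25.5 RPKM. GPRC5A, a retinoic acid-induced receptor gene, was at 33.3 and 43.8 RPKM on day 1 and 25.6 and 39.8 RPKM in co-culture. EGR1, an early response transcription factor, ranged from 7.21 RPKM in unfused fibroblast replicate 2 to 184 RPKM in day 3 replicate 2. The median log2 fold change of the list was -1.11 on day 1, -0.33 on day 2 and 0.06 on day 3.

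**Figure D3:**
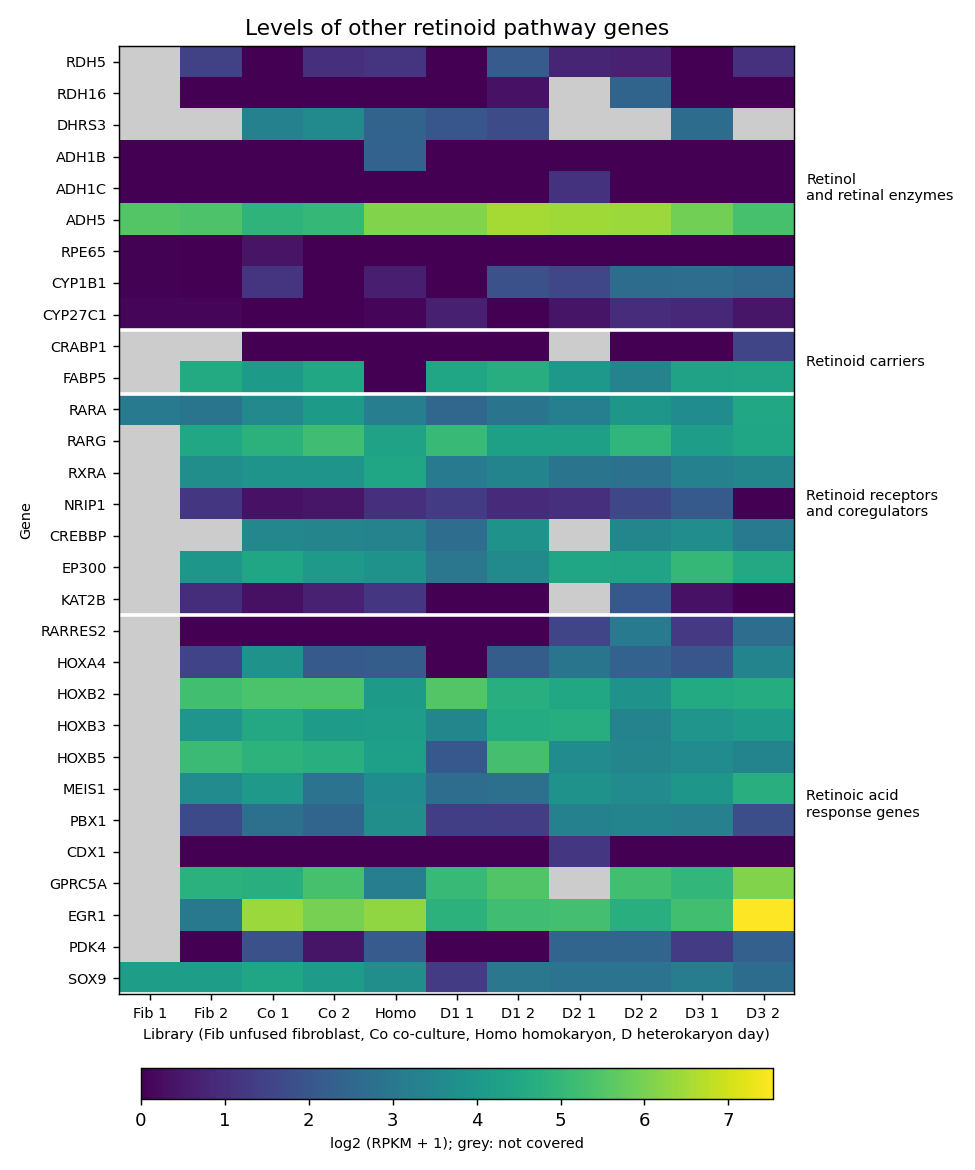
Heat map of log2 (RPKM + 1) for other retinoid pathway genes covered in at least 6 libraries (rows, by list) in the 11 libraries (columns), with grey for not covered. ADH5 is brighter on days 1 and 2 than in co-culture, SOX9 is darker in the heterokaryons than in co-culture, and RARA, RARG and RXRA are present throughout.

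Among 27 relatives of the members by gene family, 14 were tested on day 1, of which 2 were higher and 1 lower, beside 11.0% of all genes called. ALDH7A1, a dehydrogenase of lysine breakdown, was at 36.7 and 30.2 RPKM on day 1 against 1.84 and 5.63 RPKM in co-culture (log2 fold change 2.98, adjusted p = 0.00997, limma), and it was higher on day 2 (3.88, adjusted p = 0.00419) and day 3 (2.76, adjusted p = 0.0245). ALDH3A1, a dehydrogenase of aromatic and fatty aldehydes, was at 5.41 and 8.72 RPKM on day 1 and at 0 in both co-cultures, both unfused fibroblast libraries and the homokaryons (adjusted p = 0.0180 against co-culture, limma). FABP4, the adipocyte member of the family of CRABP2, was at 0 in both day 1 libraries and at 12.8 and 5.15 RPKM in co-culture, and was lower on day 1 (adjusted p = 0.0354, limma) and day 2 (adjusted p = 0.0452). ALDH2 and ALDH18A1, the relatives with the highest levels, were not called, and ALDH2 was at 125 RPKM in the homokaryons against 28.3 RPKM in unfused fibroblast replicate 2. ALDH1L2, a mitochondrial folate enzyme, was lower on day 1 than in unfused fibroblasts (log2 fold change -2.94, adjusted p = 0.0163, limma).

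Since PLAAT4 is also known as an interferon-induced gene, 40 such genes were read beside it. On day 1 against co-culture 7 of the 25 tested were higher and 1 lower, where 11.0% of all genes were called, with a median log2 fold change of 1.01 against 0 over all genes. Those higher were ISG15, BST2, CCL5, B2M, TAP1, HLA-B and MX2, and the lower one was GBP1 (-2.30, adjusted p = 0.0478, limma). ISG15, a ubiquitin-like antiviral protein, was at 472 and 265 RPKM on day 1, 11.6 and 8.56 RPKM in co-culture and 149 RPKM in homokaryons. BST2, which tethers virus particles, was at 54.9 and 52.7 RPKM on day 1, 7.55 and 11.8 on day 3, 3.32 and 0 in co-culture and 105 in homokaryons. B2M, the light chain of class I molecules, was at 1537 and 902 RPKM on day 1, 363 and 306 on day 3, 384 and 318 in co-culture and 1541 in homokaryons. BST2 and B2M had higher values on day 1 and in homokaryons than on day 3. Other genes of the list did not: CCL5, a chemokine, was at 17.3 RPKM in homokaryons and at 19.7 and 44.7 on day 3, and TAP1, a peptide transporter, at 68.4 RPKM in homokaryons and at 66.1 and 66.3 on day 3. GBP1, an antimicrobial GTPase, was at 0.178 and 1.16 RPKM on day 1 and at 16.3 and 6.50 on day 3. On day 2, CCL5 and TAP1 were higher among 16 tested (10.5% of all genes called), on day 3 CCL5 among 20 (3.48%), and B2M was the 1 of 20 called between day 3 and day 1 (-1.82, adjusted p = 0.0464, limma).

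The genes most like each member were taken as those with the highest Pearson correlation of log2 (RPKM + 1) over the libraries that cover the member, among genes with a mean of at least 5 RPKM; this is a description over few libraries that fall into the same groups. For ALDH1A3, over 11 libraries and 427 genes, they were FBXO41 (r = 0.976), PDE4C (r = 0.972) and ADA (r = 0.957). PDE4C, a cyclic AMP phosphodiesterase, was at 57.3 and 53.0 RPKM on day 1 and at 1.10 and 2.24 RPKM in co-culture. ADA, adenosine deaminase, was at 75.5 and 122 RPKM on day 1 and at 10.8 and 8.21 RPKM in co-culture.
For CRABP2, over 10 libraries and 1397 genes, they were the stress-induced factor ATF3 (r = 0.962), the interferon regulatory factor IRF1 (r = 0.944) and the octamer-binding factor POU2F2 (r = 0.943). ATF3 was at 136 and 136 RPKM on day 2, 99.7 and 100.5 on day 3, 9.30 and 16.5 in co-culture and 1.29 in unfused fibroblast replicate 2.
For PLAAT4, over 7 libraries and 1765 genes, they were HLA-C (r = 0.962), IRF3 (r = 0.925) and AKR1C1 (r = 0.909). HLA-C, a class I molecule, was at 687 and 499 RPKM on day 1, 667 in homokaryons, 296 and 283 in co-culture and 181 and 326 on day 3. ALDH1A1 and RARRES1 were listed in too few libraries for such a comparison.

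**Figure D4:**
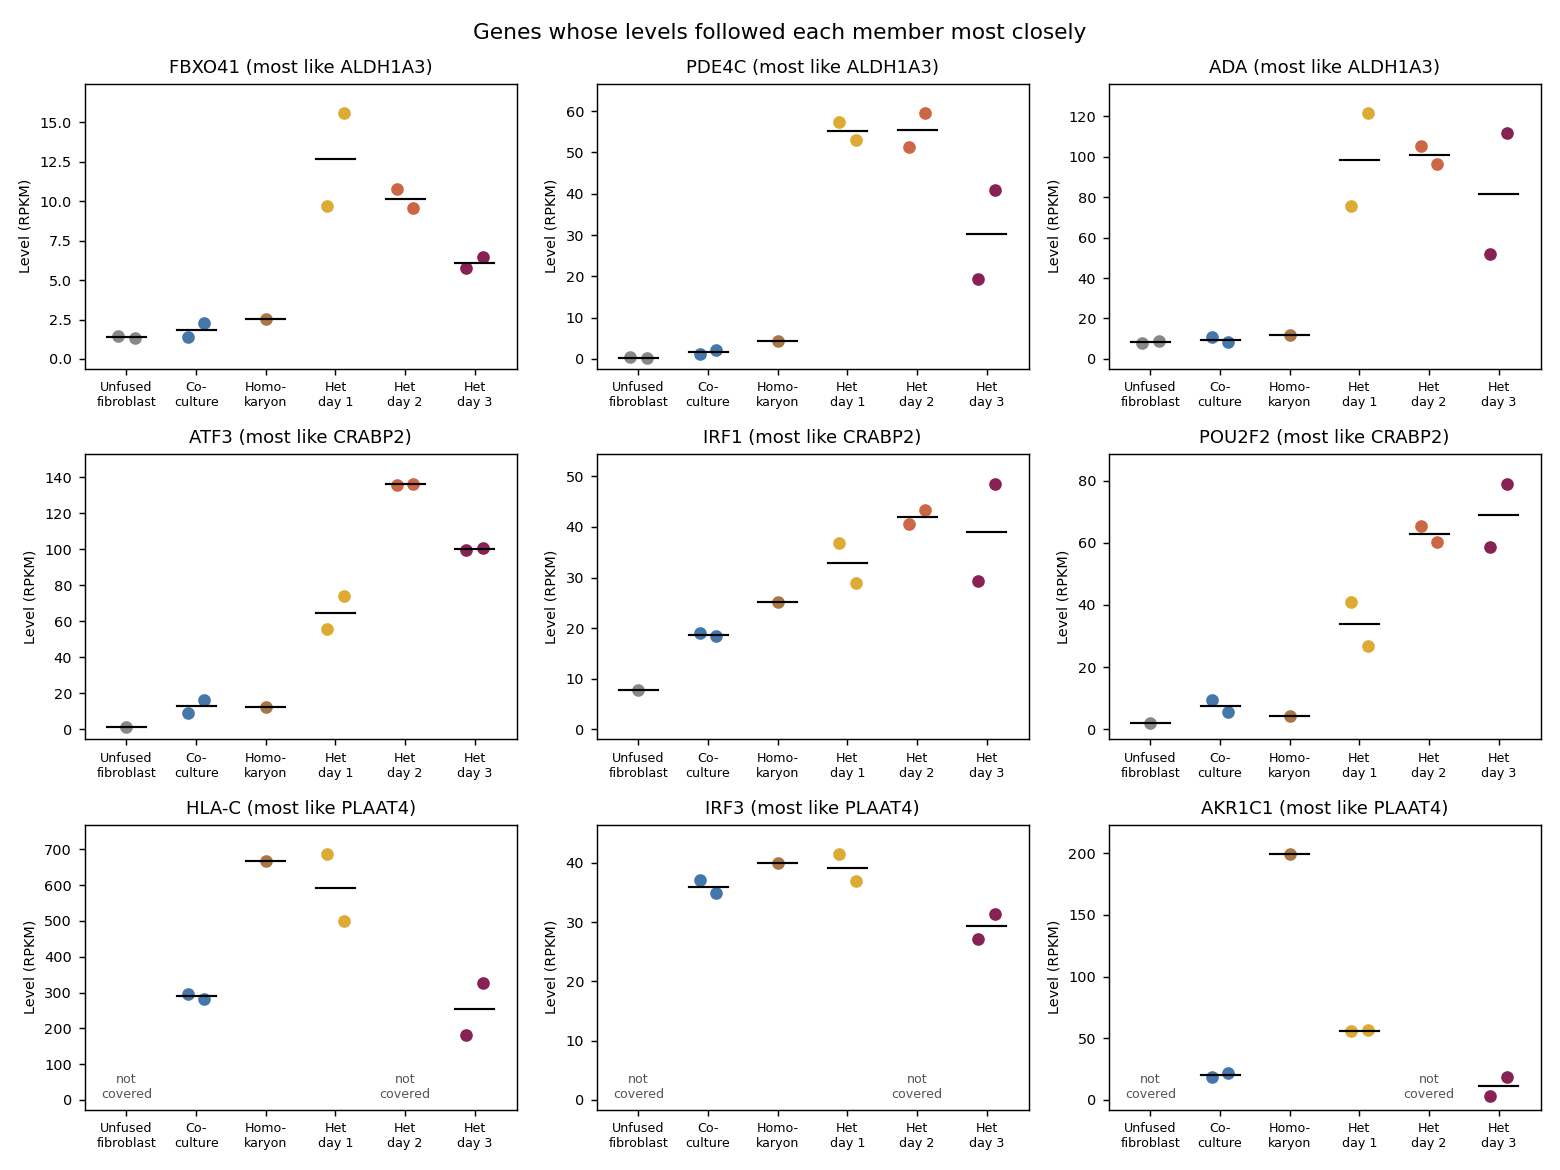
Levels in RPKM (linear axes) of the 3 genes most like ALDH1A3, CRABP2 and PLAAT4 in each library, with points for libraries and a line at the group mean. PDE4C and ADA are high on all heterokaryon days, ATF3 is highest on day 2, and HLA-C is high on day 1 and in homokaryons.

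Markers of other cell types were read in the same libraries. Of 6 epithelial markers, the 4 covered in all libraries but unfused fibroblast replicate 1 (EPCAM, KRT8, KRT19 and CLDN4) summed to 109 to 154 RPKM on day 1, 281 to 595 on day 2 and 350 to 592 on day 3. Their sum was 5.94 to 20.3 RPKM in co-culture, 16.7 in homokaryons and 7.98 in unfused fibroblast replicate 2. EPCAM, an epithelial surface protein, was at 0 in both co-cultures and at most 3.33 RPKM in the heterokaryons. KRT8 and KRT19 made up most of the sum in the heterokaryons, and KRT8 was at 0 in day 2 replicate 1 against 233 RPKM in replicate 2. CDH1, which is not in the sum, was at 0 in both day 1 libraries and at most 3.3 RPKM in the later heterokaryon libraries that cover it. The epithelial sum was thus higher in all heterokaryon libraries, as ALDH1A3 and CRABP2 were, and its part in their levels was not tested. Of 5 smooth muscle markers, the 4 covered (ACTA2, TAGLN, CNN1 and DES) summed to 509 to 696 RPKM on day 1, 668 to 720 on day 2, 1217 to 2435 on day 3, 1094 to 1122 in co-culture, 817 in homokaryons and 2571 in unfused fibroblast replicate 2. DES, the muscle filament desmin, was at 17.5 to 55.8 RPKM in the heterokaryons and at most 0.972 RPKM in the controls, and was higher than in co-culture on all 3 days (log2 fold change 4.17, 5.25 and 5.04, adjusted p = 0.00449, 0.00223 and 0.00506, limma). ACTA2, smooth muscle actin, was higher on day 3 (1.96, adjusted p = 0.0191, limma). The part of these genes in the members' levels was not tested. The 8 fibroblast markers covered summed to 7738 to 8646 RPKM on day 1, 5274 to 5765 on day 2 and 7235 to 7497 on day 3. Their sum was 7373 to 7400 RPKM in co-culture, 17214 RPKM in homokaryons and 8432 RPKM in unfused fibroblast replicate 2. Against co-culture, 1 of 9 fibroblast markers tested was lower on day 1, 2 of 8 on day 2 and 0 of 9 on day 3. Beside these, 11.0%, 10.5% and 3.48% of all genes tested were called. The 3 haematopoietic markers covered were at 0 in all libraries of days 1 and 3, co-culture and homokaryons, and summed to 0.908 and 2.84 RPKM on day 2 and 1.45 RPKM in unfused fibroblast replicate 2. In such bulk libraries, a change in the number of expressing cells and a change in RNA per cell cannot be told apart.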

How the data were processed

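Per the labels, polyA RNA was selected with oligo dT beads and sequenced in 12 libraries; the builds are hg19 and mm10, per the submitters' processing notes, and no source used here states an aligner. The authors deposited 1 table per library, with 1 value per RefSeq transcript. In 11 of these the deposited values were taken as RPKM, inferred from their form. For unfused fibroblast replicate 3 the deposited values are a signal of unstated unit, with none of its 8070 accessions in the human table, and was not used. In replicate 1, 12043 of the 17527 listed transcripts are absent from the human reference and carry at most 2 decimals; what they are was not worked out, and they were left out. Mouse transcripts were not analysed here.

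Each of the 11 tables holds 10000 distinct values and no 0, and runs in accession order to an end: a transcript missing before the end was set to 0, and one past it was not covered, with any value listed there dropped. Transcripts were joined to genes by RefSeq (GRCh38.p14), with 132 accessions named through GENCODE 29, and summed per gene; 244 genes near an unnamed accession were set aside. These rules were chosen after seeing the data.

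The comparisons used limma 3.58.1 (lmFit, eBayes with trend; R 4.3.3) on log2 (RPKM + 1) over 10 libraries of 5 replicated groups, for genes covered in all libraries of both groups and at 1 or more in at least 2 libraries. Each p was adjusted by Benjamini-Hochberg over all genes tested, with a call under 0.05; the script was tested on simulated data. The 1 homokaryon library entered no test. Alternatives were pseudocounts of 0.1 and 5, no filter, upper quartile and quantile scaling, a replicate block, the 2 groups alone, genes covered in part, the transcript with the highest mean, and each library left out. The members and lists were chosen with earlier results of these data known. All members were named; list genes were named where they passed the test or were among the up to 4 highest, and beside them the 3 genes most like each member. DHRS3, HOXB2, CRABP1, EP300 and GPRC5A, the markers, and the interferon genes given against PLAAT4, were named after their values were seen, for their place in the pathway or list. One listed gene is not reported here.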

Additional observations from a re-analysis of the deposited data

Results flagged for a closer look

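PLAAT4 differed between heterokaryon days in its relation to co-culture. Both day 1 libraries lay above both co-cultures and both day 3 libraries lay under them, and the difference between the days, -4.82 on the log2 scale, passed the test (adjusted p = 0.0464, limma). That call held in 5 of 13 alternative settings. The day 3 difference from co-culture did not pass (adjusted p = 0.250, limma). Day 2 does not cover the gene.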

How the results depend on the processing

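All values kept their direction in every alternative run except ALDH1A3 between days 2 and 1 (-0.0263 without day 1 replicate 1 and 0.679 without day 1 replicate 2, around 0.33) and CRABP2 between days 3 and 2 (-0.00983 with quantile scaling, -0.0657 without day 2 replicate 2 and 0.116 without day 2 replicate 1), none of them called. Of 249 values of single members under an alternative, 206 kept their direction and side of the threshold, 38 no longer passed and 2 newly passed; the cause was not tested. Of the 2 members called on day 1 against co-culture, 1 stayed called with a pseudocount of 0.1, no filter, upper quartile scaling, the replicate block, genes covered in part or the transcript with the highest mean, where PLAAT4 gave adjusted p-values of 0.0565 to 0.254 (limma). On day 3 the count was 1 in place of 2 with a pseudocount of 5, quantile scaling, the replicate block, the 2 groups alone, genes covered in part or the transcript with the highest mean, where ALDH1A3 gave 0.0677 to 0.107 (limma). For day 3 against day 1 the count of 1 became 2 with upper quartile scaling and 0 with a pseudocount of 0.1, no filter, the replicate block, the 2 groups alone, genes covered in part or the transcript with the highest mean. Leaving out single libraries, the count ranged from 0 to 2 on days 1 and 2 and from 0 to 1 on day 3 against co-culture, from 0 to 1 for co-culture, from 1 to 2 for days 1 and 2 and from 0 to 1 for day 3 against unfused fibroblasts, and from 0 to 1 for day 3 against day 1. Where CRABP2 enters without unfused fibroblast replicate 1, more members were tested.

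The count of all genes called depends on the setting: without leaving out a library it ranged from 213 to 382 around 394 on day 1, 130 to 513 around 257 on day 2 and 12 to 140 around 105 on day 3 against co-culture, from 1 to 104 around 2 for co-culture, 127 to 237 around 152, 109 to 290 around 122 and 61 to 114 around 67 for days 1, 2 and 3 against unfused fibroblasts, and from 0 to 23 around 8, 0 to 13 around 0 and 0 to 95 around 38 for day 2 against 1, 3 against 2 and 3 against 1. Higher calls on day 2 against co-culture were 63.8% of the total, 80.4% with upper quartile and 44.8% with quantile scaling, which moved the median of all genes from 0.30 to 0.53 and 0.00064. On day 3 they were 65.7% and 87.1% with upper quartile scaling. Against unfused fibroblasts upper quartile scaling took them from 57.9% to 15.2%, 77.0% to 52.2% and 74.6% to 48.1% on days 1, 2 and 3, quantile scaling to 45.7%, 57.0% and 59.7%, and for day 3 against day 1 upper quartile scaling took them from 55.3% to 87.4%.

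Deviations of same-numbered libraries correlated between -0.107 and 0.104 over 966 genes, which gave no sign of a pairing by replicate number. With only 1 difference between replicates in each group, this cannot show that the libraries were unpaired. The replicate block moved the day 3 count of genes against co-culture from 105 to 68 and that of day 3 against day 1 from 38 to 0. Crossing the day 3 numbers, added after seeing the data for the correlation of -0.107 between days 2 and 3, gave 0 genes called for day 3 against day 2 with the block, as did the numbers as labelled. Depth is unknown, so a level of 0 sets no limit.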
